A study of Mus musculus with 6 samples.

Results

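Naive pluripotency in the mouse is the state of the preimplantation epiblast and of embryonic and induced pluripotent stem cells kept with leukaemia inhibitory factor (LIF). It is held by a set of transcription factors that act together with the core factors Pou5f1 and Sox2. 10 such genes are described here: Nanog, Esrrb, Klf2, Klf4, Klf5, Tfcp2l1, Tbx3, Prdm14, Zfp42 and Nr0b1, taken by gene name from the deposited count table of 48440 genes. All 10 were present in the table, and all 10 passed the filter on low counts that left 14664 genes to test.

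The study compared induced pluripotent stem cells (iPSCs) in which Tet1 was mutated with Cas9 with cells that were not targeted. Tet1 oxidises 5-methylcytosine, the first step of active DNA demethylation. The Tet1 KO group held clones 14, 30 and 33 (replicates 1, 2 and 3), labelled as Tet1 Cas9 mut/mut, and the non-targeted group held clones 49, 51 and 52 (replicates 1, 2 and 3), which lack that entry. The genotype wt/wt;GFP/wt was shared by all 6. All 6 were clonal lines of the same male iPSC line, iPSC34.3, which had been made from wild-type mouse embryonic fibroblasts (MEFs). The strain label names the allele Tet1tm1Kohx (B6) and the transgene Tg(Pou5f1-EGFP)2Mnn/J (B6;CBA), EGFP under Pou5f1 control, for both groups. The labels give the same handling for both groups: 14 passages in KSR medium, transfection with Cas9 protein, a Tet1 guide and a donor oligonucleotide, 12 h in a homology-directed repair enhancer, colony picking, 4 further passages, expansion on MEF feeders and removal from them. The sources used here give neither whether the non-targeted clones met the guide nor how the line was reprogrammed, so reads from a reprogramming transgene of Klf4 or Pou5f1, if the cells carried one, could not be told apart from those of the endogenous gene. Each group is 3 clones of 1 parental line, and the p-values therefore measure the spread between such clones.

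Polyadenylated RNA was sequenced from a stranded library, and reads were counted over whole gene bodies. Total counts lay between 11937909 and 13672879 in the Tet1 KO libraries and between 12564763 and 16189554 in the non-targeted libraries. Levels are given as CPM (read counts scaled to a common library size), which divides each count by the effective size of its library. Tet1 itself had 365, 231 and 288 CPM in Tet1 KO replicates 1 to 3, against 1158, 966 and 1034 CPM in non-targeted replicates 1 to 3 (log2 fold change -1.84 ± 0.16 SE, edgeR adjusted p = 0.0703, DESeq2 adjusted p = 9.06e-20). Its level was thus below the non-targeted range in all 3 KO clones, with reads left in each, and the sources used here do not give the edited position. The 3 KO clones did not form a tight group. KO replicate 1 had a Pearson correlation over all tested genes of 0.984 to 0.986 with the non-targeted libraries, against 0.973 with KO replicate 2 and 0.958 with KO replicate 3. The members' fold changes are for this reason also given with single clones left out. Pou5f1, the defining marker of pluripotent cells, had 684, 692 and 675 CPM in the Tet1 KO clones and 744, 748 and 849 CPM in non-targeted replicates 1 to 3, so every library held abundant pluripotent cell RNA. Sox2 was listed at 0 because it lies within Sox2ot and reads shared by overlapping genes were left out of the counting.

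Naive factors bind one another's regulatory regions as well as their own, and a cell usually keeps or loses the set as a whole when it moves towards the formative and primed epiblast. LIF acts through Stat3 on Klf4 and Tfcp2l1, whereas Klf2 and Esrrb are known to respond to inhibition of MEK and of GSK3. Tet1 binds mainly at CG-rich promoters. The proximal promoters of the factors differ in their CG content, and those of 4 members are shown. They are the 2 with an octamer-type element and the 2 with the most CG dinucleotides among the windows analysed. Each is the window from 250 bases before to 50 bases after the RefSeq start of the gene (GRCm38.p6), read 5′ to 3′ on the gene's own strand. Capitals mark every CG dinucleotide and the motif TTTGCAT, or its reverse complement, which forms the larger part of the octamer bound by POU factors such as Pou5f1.

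The Nanog window lies at chr6:122707239-122707538 (plus strand), that of Zfp42 at chr8:43306960-43307259 (minus strand), that of Klf4 at chr4:55532426-55532725 (minus strand) and that of Klf2 at chr8:72318812-72319111 (plus strand).
Nanog: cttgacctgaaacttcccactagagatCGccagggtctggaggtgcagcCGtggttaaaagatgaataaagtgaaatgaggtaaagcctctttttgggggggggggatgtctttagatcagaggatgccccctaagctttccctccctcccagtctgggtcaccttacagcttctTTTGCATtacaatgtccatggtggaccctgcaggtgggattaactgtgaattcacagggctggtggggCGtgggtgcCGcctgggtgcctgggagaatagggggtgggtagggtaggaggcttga
Zfp42: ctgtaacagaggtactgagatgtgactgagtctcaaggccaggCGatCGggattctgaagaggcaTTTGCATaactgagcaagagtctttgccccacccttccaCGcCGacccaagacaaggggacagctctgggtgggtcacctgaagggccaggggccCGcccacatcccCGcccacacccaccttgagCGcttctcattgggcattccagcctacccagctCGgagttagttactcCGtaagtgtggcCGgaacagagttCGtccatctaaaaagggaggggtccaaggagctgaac
Klf4: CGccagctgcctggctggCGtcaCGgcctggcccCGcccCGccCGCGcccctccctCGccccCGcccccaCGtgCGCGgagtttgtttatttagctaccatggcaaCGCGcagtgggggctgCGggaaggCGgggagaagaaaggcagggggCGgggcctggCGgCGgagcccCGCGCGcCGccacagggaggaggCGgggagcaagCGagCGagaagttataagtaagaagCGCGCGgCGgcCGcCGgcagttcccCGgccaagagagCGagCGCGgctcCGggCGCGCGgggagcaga
Klf2: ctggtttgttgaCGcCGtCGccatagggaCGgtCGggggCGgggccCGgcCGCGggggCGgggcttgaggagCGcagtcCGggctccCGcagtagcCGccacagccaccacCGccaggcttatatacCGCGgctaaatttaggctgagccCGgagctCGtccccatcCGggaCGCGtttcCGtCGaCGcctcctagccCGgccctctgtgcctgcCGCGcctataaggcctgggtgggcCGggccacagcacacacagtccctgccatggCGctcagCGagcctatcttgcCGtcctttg

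RefSeq windows matched 7 of the 10 members by symbol, and those of Klf5, Tbx3 and Prdm14 were not analysed here. Nanog had 4 CG dinucleotides in its 300 bases and Esrrb 7. Zfp42 had 11, Nr0b1 14 and Tfcp2l1 21. Klf2 had 32 and Klf4 had 40, at or above which only 9.52% and 3.91% of the 32851 mouse windows lay, where the median window had 7. TTTGCAT on either strand occurred in 2 of the 7 windows, those of Nanog (first base at position -75 from the start) and Zfp42 (first base at position -185), and in 4.63% of all windows. The GC box GGGCGG, searched on both strands, occurred 4 times in the Klf4 window and 2 times each in those of Klf2 and Zfp42, and at least once in 35.7% of all windows. The Klf motif CCACACCC occurred in the Zfp42 window alone among the 7 and in 3.56% of all windows. Neither TCAAGGTCA, a site of the Esrrb type, nor TTCCNGGAA, a site of the Stat type, was found in the 7 windows, and they occurred in 0.423% and 1.15% of all windows.

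The 10 factors stood lower on average in the Tet1 KO clones than in the non-targeted clones, but the difference was spread very unevenly over the KO clones and no member passed the test. KO replicate 3 held the lowest level of all 10 factors among the 6 libraries, by as much as 13.4 times below the non-targeted mean for Prdm14 and 1.33 times for Klf5. KO replicate 2 was intermediate for most of them, and KO replicate 1 was close to the non-targeted clones. The estimated log2 fold change, Tet1 KO minus non-targeted, was below 0 for 10 of 10 members, where 49.7% of all tested genes were below 0, and its median was -0.69 over the members and 0.00 over all tested genes. In edgeR's quasi-likelihood test 0 of 10 members passed an adjusted p of 0.05, where the test called 0% of the 14664 genes in either direction and 3640 genes had an unadjusted p under 0.05. DESeq2 also called 0 of 10, against 3.35% of its 13677 genes called as lower and 5.77% as higher, and its adjusted p ran from 0.109 to 0.674 over the members.

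**Figure D1:**
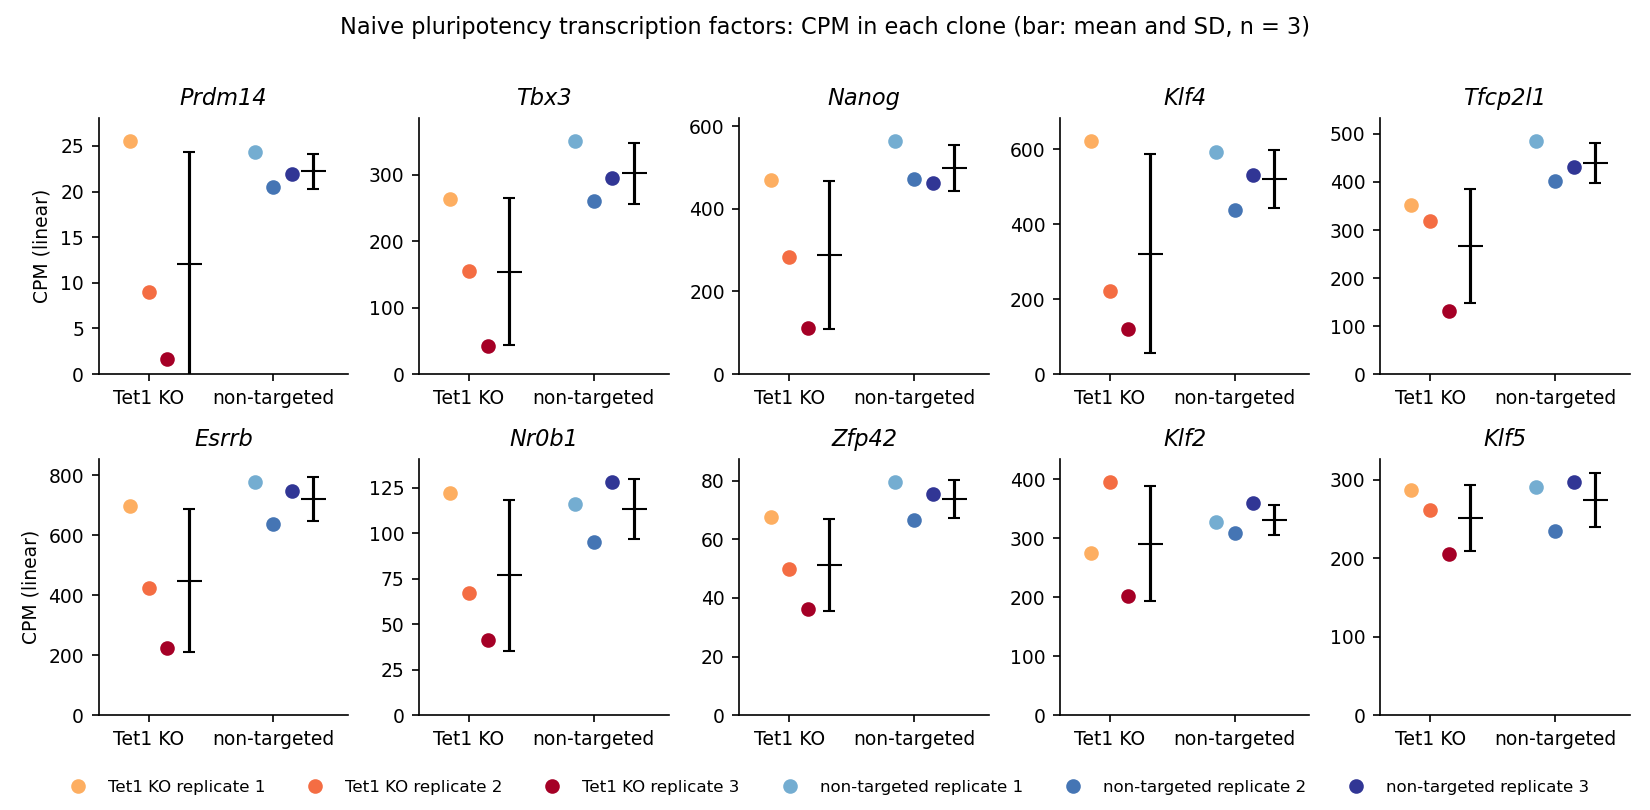
CPM (linear axis) of the 10 naive factors in each of the 3 Tet1 KO and 3 non-targeted clones, 1 panel a gene, with the group mean and SD as bars; the lower bar of Prdm14 in the KO group is cut at 0. The darkest KO point, replicate 3, is the lowest of the 6 in every panel, while KO replicate 1 lies beside the non-targeted clones in most of them.

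Nanog, the homeodomain factor that lets mouse stem cells renew without LIF when it is raised, lies at chr6:122707489-122714633 (plus strand, GRCm38). It had 471, 284 and 112 CPM in Tet1 KO replicates 1, 2 and 3, against 564, 473 and 462 CPM in non-targeted replicates 1, 2 and 3. KO replicate 1 fell inside the non-targeted range, and the other two KO clones lay below it. The log2 fold change was -0.79 ± 0.43 (SE; edgeR adjusted p = 0.288). KO replicate 3 held 4.47 times less than the non-targeted mean, well beyond the counting error of its 1555 reads (exact Poisson 95% interval 1479 to 1634, for counting error only).

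The nuclear receptors Esrrb and Nr0b1 had the same order of KO clones at different levels. Esrrb (chr12:86361117-86521628, plus strand), an orphan receptor that can stand in for Nanog in self-renewal, had 698, 424 and 223 CPM in Tet1 KO replicates 1 to 3 and 778, 638 and 748 CPM in non-targeted replicates 1 to 3. Its log2 fold change was -0.69 ± 0.35 (SE; edgeR adjusted p = 0.264), and KO replicate 1 lay within the non-targeted range. Nr0b1 (Dax1; chrX:86191764-86195947, plus strand), which binds Pou5f1 and Esrrb as a corepressor, had 122, 66.9 and 41.2 CPM in Tet1 KO replicates 1 to 3 and 116, 95.4 and 128 CPM in non-targeted replicates 1 to 3. There too KO replicate 1 was within the non-targeted range and the other two KO clones were below it (log2 fold change -0.56 ± 0.35 SE, edgeR adjusted p = 0.343).

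Tfcp2l1 and Zfp42 were the 2 members with the smallest p. Tfcp2l1 (chr1:118627945-118685168, plus strand), a grainyhead-type factor downstream of LIF and Stat3, had 352, 319 and 130 CPM in Tet1 KO replicates 1 to 3, against 485, 403 and 430 CPM in non-targeted replicates 1 to 3. It was the only one of the 10 members whose groups did not overlap, where 14.7% of all tested genes were lower and 14.8% higher without overlap. Its log2 fold change was -0.72 ± 0.32 (SE; edgeR adjusted p = 0.217, DESeq2 adjusted p = 0.109). Zfp42 (Rex1; chr8:43295063-43306980, minus strand), a zinc finger gene widely used as a marker of the naive state, had 67.5, 49.9 and 36.2 CPM in Tet1 KO replicates 1 to 3 and 79.5, 66.7 and 75.3 CPM in non-targeted replicates 1 to 3. Its log2 fold change was -0.53 ± 0.21 (SE; edgeR adjusted p = 0.178, DESeq2 adjusted p = 0.109). KO replicate 1 overlapped the lowest non-targeted clone, and Zfp42 was the only member with an unadjusted p under 0.05 (0.0376), where 10.8% of all tested genes had such a p and were lower.

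The 3 Krüppel-like factors differed in their pattern over the KO clones. Klf4 (chr4:55527143-55532466, minus strand), a LIF and Stat3 target and one of the reprogramming factors, had 622, 221 and 122 CPM in Tet1 KO replicates 1 to 3, against 593, 438 and 531 CPM in non-targeted replicates 1 to 3. KO replicate 1 was the highest of the 6 libraries and KO replicate 3 the lowest (log2 fold change -0.69 ± 0.52 SE, edgeR adjusted p = 0.427). Klf2 (chr8:72319033-72321656, plus strand), the Krüppel-like factor that is unstable when MEK is active, had 275, 395 and 202 CPM in Tet1 KO replicates 1 to 3 and 327, 309 and 359 CPM in non-targeted replicates 1 to 3. For Klf2 it was KO replicate 2 that was the highest of all 6 libraries, and Klf2 was the only member in which the KO clones were not ordered as 3 below 2 below 1 (log2 fold change -0.19 ± 0.22 SE, edgeR adjusted p = 0.608).

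Klf5 (chr14:99298691-99313405, plus strand), needed in the inner cell mass as well as in trophectoderm, had 287, 262 and 206 CPM in Tet1 KO replicates 1 to 3, against 291, 234 and 297 CPM in non-targeted replicates 1 to 3. It was the least variable member, with 2 of 3 KO clones inside the non-targeted range (log2 fold change -0.12 ± 0.14 SE, edgeR adjusted p = 0.610). The 2 genes at the foot of the order, Klf2 and Klf5, were the only ones to change sign when a clone was left out: without KO replicate 3 their log2 fold changes were 0.0153 and 0.0019 in edgeR. The log2 ratio of Klf4 to Klf2, which needs no comparison of library sizes, was 1.2, -0.84 and -0.73 in Tet1 KO replicates 1 to 3 and 0.86, 0.50 and 0.56 in non-targeted replicates 1 to 3. The groups overlapped in this ratio because of KO replicate 1 (difference -0.77, exact permutation p = 0.4, two-sided), and with 3 clones a group the smallest p that this test can give is 0.1.

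Tbx3 and Prdm14 had the widest spread. Tbx3 (chr5:119670669-119684724, plus strand), a T-box factor downstream of phosphoinositide 3-kinase and LIF signalling, had 264, 156 and 42.4 CPM in Tet1 KO replicates 1 to 3, against 351, 261 and 295 CPM in non-targeted replicates 1 to 3. KO replicate 1 lay just inside the non-targeted range, and KO replicate 3 was 7.13 times below the non-targeted mean (log2 fold change -0.97 ± 0.54 SE, edgeR adjusted p = 0.290). The antisense gene Tbx3os1 overlaps 697 bases of Tbx3 on the opposite strand, and the counting was set to use strand. Prdm14 (chr1:13113457-13127163, minus strand), a PR-domain protein that represses FGF signalling and de novo DNA methyltransferase genes, had 25.5, 9.02 and 1.65 CPM in Tet1 KO replicates 1 to 3 and 24.3, 20.5 and 21.9 CPM in non-targeted replicates 1 to 3. KO replicate 1 was thus the highest of the 6 and KO replicate 3 the lowest, where the value rests on 23 reads (exact Poisson 95% interval 14.6 to 34.5). Its log2 fold change was -0.88 ± 0.72 (SE; edgeR adjusted p = 0.472).

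The spread within the KO group differed in size over the set. The SD of log2 CPM was greater over the 3 KO clones than over the 3 non-targeted clones for 10 of 10 members, as it was for 70.1% of all tested genes. It was 1.93 in the KO and 0.12 in the non-targeted clones for Prdm14, and 0.25 and 0.19 for Klf5. Of all tested genes, 0.0955% had a KO SD at least as large as Prdm14, 0.996% as large as Tbx3, 1.78% as large as Klf4 and 2.95% as large as Nanog. The share was 6.59% for Esrrb, 7.48% for Tfcp2l1 and 7.62% for Nr0b1. It was 21.1% for Klf2, 23.6% for Zfp42 and 45.9% for Klf5, whose spread was thus not unusual. Relative to the non-targeted mean, the median of the 10 members was -0.06, -0.75 and -1.72 on the log2 scale in Tet1 KO replicates 1, 2 and 3, and 0.12, -0.16 and 0.04 in non-targeted replicates 1, 2 and 3. KO replicate 3 was the lowest library for 10 of 10 members, against 26.9% of all tested genes, and the order of KO replicate 3 below 2 below 1 held for 9 of 10, against 24.7%. KO replicate 1 lay inside the non-targeted range for 6 of 10, against 40% of all tested genes, above it for Klf4 and Prdm14 and below it for Tfcp2l1 and Klf2. Among the non-targeted clones, replicate 2 was the lowest for 9 of 10 members, against 32.8% of all tested genes.

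**Figure D2:**
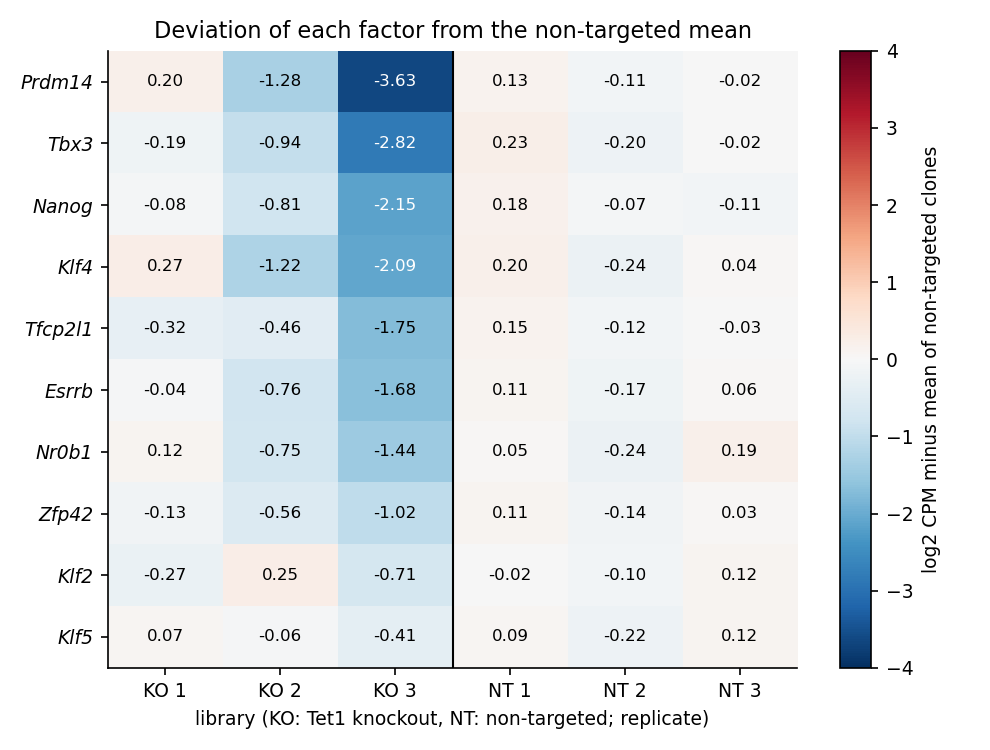
Log2 CPM of each factor minus its mean over the non-targeted clones, in each of the 6 clones (columns, KO clones first). The medians of the KO columns are -0.06, -0.75 and -1.72, with Prdm14 at -3.63 and Klf5 at -0.41 in replicate 3, and Klf2 in KO replicate 2 stands out at 0.25.

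Which KO clones entered the fit decided whether the factors were called. Without KO replicate 1, edgeR called 8 of 10 members as lower, where it called 14% of all tested genes as lower and 15.1% as higher; the exceptions were Klf2 and Klf5. In that fit Klf4 had a log2 fold change of -1.61 ± 0.23 (SE; edgeR adjusted p = 0.00254), Zfp42 -0.79 ± 0.15 (0.00677) and Nr0b1 -1.07 ± 0.20 (0.00699). Esrrb had -1.16 ± 0.23 (edgeR adjusted p = 0.00845), Nanog -1.34 ± 0.32 (0.0163) and Prdm14 -2.09 ± 0.50 (0.0173). Tbx3 had -1.62 ± 0.43 (edgeR adjusted p = 0.025) and Tfcp2l1 -0.98 ± 0.30 (0.0409). DESeq2 without KO replicate 1, an alternative chosen after seeing the data, called 7 members as lower, leaving out Tfcp2l1 (adjusted p = 0.0968), where it called 14.3% of its genes as lower. Without KO replicate 2 or 3, or without any non-targeted clone, edgeR called 0 members, and it called 0 genes of any kind. Leaving out KO replicate 1 was a choice about a clone that lay near the non-targeted clones, and a fit without it says how far replicates 2 and 3 stood from the non-targeted clones, not what the mutation did in all 3 clones.

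**Figure D3:**
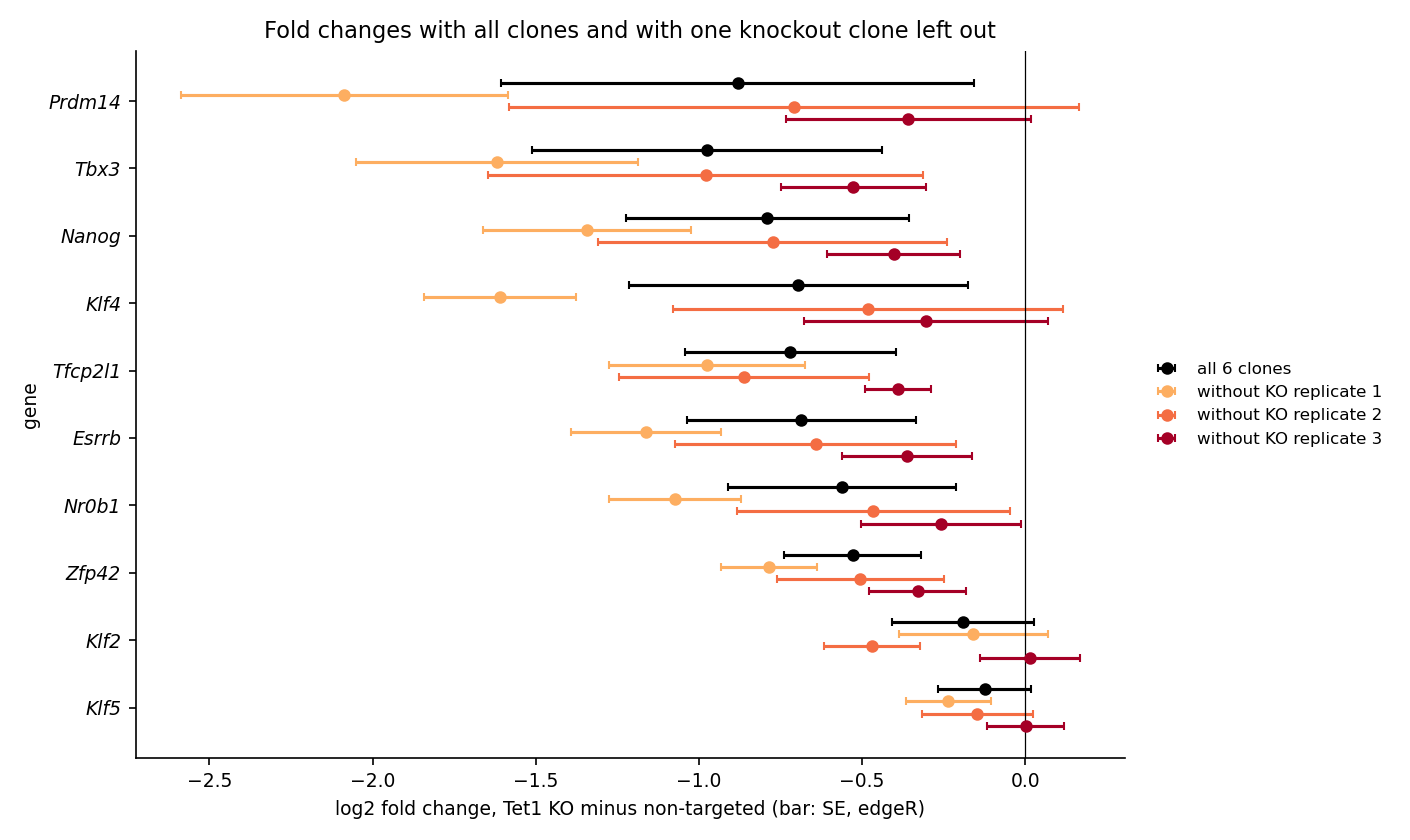
Log2 fold change of each factor, Tet1 KO minus non-targeted, with its SE in edgeR, with all 6 clones (black) and with 1 KO clone left out (colours). Without KO replicate 1 the estimates of all factors but Klf2 move down and their bars narrow, to -1.61 ± 0.23 for Klf4, while Klf2 goes to -0.16 ± 0.23, and without KO replicate 3 the estimates move up.

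The genes around Nanog on chromosome 6 were lower together with it in 2 of the KO clones. Each member was set against the median deviation of the 20 nearest genes on its chromosome with at least 4 CPM. For the other 9 members this local median stayed within 0.27 of 0 on the log2 scale in every library. The falls of these members in KO replicates 2 and 3 were thus larger than those of their neighbours. Klf2 and Klf5 are excepted in KO replicate 2, where they stood at 0.25 and -0.06. Zfp42 in that clone was at -0.56 with a local median of -0.14. Small deviations could be matched, as for Prdm14 in KO replicate 1, at 0.20 with a local median of 0.22. The 20 neighbours of Nanog, in contrast, had a median of -0.05, -1.01 and -0.95 in Tet1 KO replicates 1, 2 and 3, against -0.01, -0.03 and 0.04 in non-targeted replicates 1 to 3. In KO replicates 2 and 3, 17 and 18 of the 20 neighbours lay more than 0.35 below the non-targeted mean, against 1 in KO replicate 1 and 2, 1 and 0 in non-targeted replicates 1 to 3. The stretch of chromosome 6 around Nanog was therefore lower in these 2 clones as a whole.

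**Figure D4:**
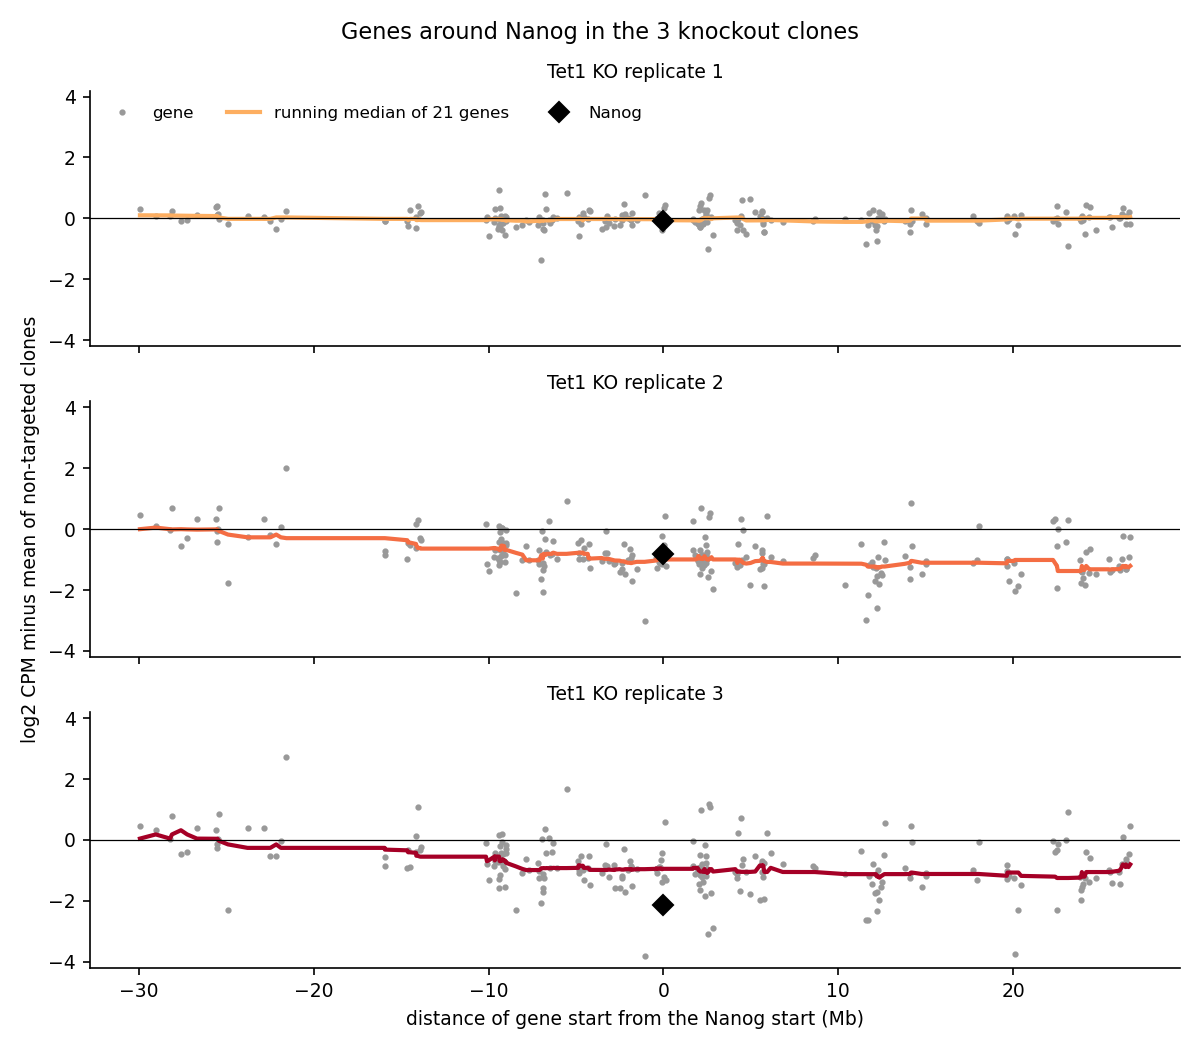
Log2 CPM minus the non-targeted mean for genes of at least 4 CPM on part of chromosome 6, in the 3 Tet1 KO clones (1 panel each). Genes are placed by distance from the start of Nanog, from -29.9 to 26.7 Mb. The line is a running median of 21 genes and the diamond is Nanog. The rest of the chromosome is not drawn. The median over chromosome 6 was -0.43 and -0.40 in KO replicates 2 and 3, so lower genes were not confined to the stretch around Nanog. Nor was the chromosome lower evenly. Serbp1, at -55.5 Mb from Nanog, stood at -0.03 and -0.15 in these 2 clones, and Lsm3, at -31.2 Mb, at 0.01 in both. Other genes between them lay on either side of 0. In KO replicate 1 the line stays near 0. In KO replicates 2 and 3 the line around distance 0 lies near -1, and in KO replicate 3 Nanog lies further down at -2.15.

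Set against its neighbours, Nanog was at -0.03, 0.20 and -1.20 in Tet1 KO replicates 1, 2 and 3 and at 0.19, -0.04 and -0.14 in non-targeted replicates 1 to 3. In KO replicate 2 the level of Nanog was thus no lower than that of the genes around it, 15 of 20 of which were lower still, whereas in KO replicate 3 only 1 of the 20 was lower. The difference between the group means of these log2 deviations was -0.35 relative to the neighbours and -1.01 without them. The part of the neighbourhood in the fold change of Nanog was not tested, and without Nanog the median log2 fold change of the other 9 members was -0.69. Gdf3, which lies 0.10 Mb from Nanog and encodes a TGF-beta family ligand, had deviations of -0.13, -1.13 and -1.40 in Tet1 KO replicates 1 to 3.

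The cultures had been grown on feeders, and in bulk RNA fewer cells of a type and less RNA per cell cannot be told apart. The members were also set against Pou5f1, which pluripotent cells make and fibroblasts do not. Pou5f1 is also a reprogramming factor, and reads from a transgene, if the cells carried one, would enter every ratio and could not be told apart. The SD of Pou5f1 over the KO clones was 8.54 CPM around a mean of 684 CPM. Pou5f1 itself was lower in the KO clones with no overlap (log2 fold change -0.19 ± 0.07 SE, edgeR adjusted p = 0.165). That difference raises the KO minus non-targeted difference of every ratio. The log2 ratio of Nanog to Pou5f1 was -0.54, -1.29 and -2.59 in Tet1 KO replicates 1 to 3 and -0.40, -0.66 and -0.88 in non-targeted replicates 1 to 3. The mean difference was -0.83 for Nanog, -0.83 for Klf4, -1.13 for Tbx3 and -1.43 for Prdm14. It was -0.06 for Klf2 and 0.06 for Klf5, and the other 4 lay between -0.65 and -0.38. The exact permutation p-values (two-sided, 3 clones against 3) ran from 0.2 to 0.8, and adjusted over the 10 ratios from 0.5 to 0.8.

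Fibroblast markers ran opposite to the members over the KO clones. Of 26 feeder markers 23 were tested, 17 were higher with no overlap between the groups (14.8% of all tested genes were), and DESeq2 called 10 as higher and 0 as lower. Their median deviation was 0.59, 0.79 and 1.90 in Tet1 KO replicates 1, 2 and 3 and -0.38, 0.27 and 0.14 in non-targeted replicates 1 to 3, so the clone with the lowest naive factors had the highest fibroblast markers. Col6a2 had 14.6, 14.6 and 27.3 CPM in Tet1 KO replicates 1 to 3 and 6.38, 8.30 and 8.62 CPM in non-targeted replicates 1 to 3. Col5a1 averaged 66.7 ± 30.3 CPM in Tet1 KO and 29.0 ± 4.10 CPM in non-targeted clones, and Loxl1 13.7 ± 2.47 and 8.32 ± 0.624 CPM (SD, n = 3 each). The summed CPM of the tested markers ranged from 1660 to 2165 in Tet1 KO and from 1693 to 2024 in non-targeted clones, and none of the 26 had a total of 0. Without Fn1 and Vim, the 2 most abundant of them, the sum was 386, 471 and 1093 CPM in Tet1 KO replicates 1 to 3 and 207, 331 and 310 CPM in non-targeted replicates 1 to 3, so all 3 KO clones lay above the non-targeted range and KO replicate 3 stood far above the rest. Fn1 ran the other way, at 1419, 872 and 697 CPM in Tet1 KO replicates 1 to 3. The part of these cells or transcripts in the members' values was not tested. The level of Pou5f1 in KO replicate 3, at 675 CPM beside 684 CPM in KO replicate 1, was close to that of the other KO clones. Other genes of pluripotent cells differed in direction over Tet1 KO replicates 1 to 3. Sall4 had 634, 564 and 480 CPM, Dppa4 81.9, 65.0 and 60.9 CPM, and Tdgf1 873, 590 and 552 CPM, each lowest of the 6 libraries in KO replicate 3. Utf1 had 452, 410 and 464 CPM, and Lin28a rose, at 427, 590 and 740 CPM.

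The order of the factors by level depended on the length used, because reads were counted over whole gene bodies while mature mRNA holds exons only. In the non-targeted clones Nanog was first per kb of exon, but Klf2 (126 CPM per kb), Klf4 (97.8) and then Nanog (69.9) led per kb of whole gene, and Prdm14 was last on both scales. In CPM per kb of exon, Nanog stood at 129 ± 80.1 in Tet1 KO and 223 ± 25.1 in non-targeted clones, Klf2 at 157 ± 52.9 and 180 ± 13.8, and Klf4 at 106 ± 86.9 and 171 ± 25.6 (SD, n = 3 each). Esrrb followed at 74.2 ± 39.4 in Tet1 KO and 119 ± 12.2 in non-targeted clones, then Nr0b1 at 42.5 ± 22.9 and 62.6 ± 9.14, and Klf5 at 48.3 ± 7.99 and 52.7 ± 6.62. On the exon scale Klf2 was first in KO replicates 2 and 3 and Nanog was first in KO replicate 1 and in the non-targeted mean. Tfcp2l1 stood at 28.3 ± 12.7 in Tet1 KO and 46.6 ± 4.45 in non-targeted clones, Tbx3 at 23.3 ± 16.7 and 45.7 ± 6.86, Zfp42 at 27.2 ± 8.34 and 39.3 ± 3.47, and Prdm14 at 4.71 ± 4.77 and 8.66 ± 0.754. In the order of the non-targeted means on the exon scale, the neighbours Klf2 and Klf4, Nr0b1 and Klf5, Klf5 and Tfcp2l1, Tfcp2l1 and Tbx3, and Tbx3 and Zfp42 did not differ beyond their spread.

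The genes whose pattern over the 6 clones came closest to each member were sought among tested genes of at least 10 CPM, by the root mean square difference of the log2 deviations. The nearest to Nanog were 1110002J07Rik (0.0786), Nr5a2 (0.0985), an orphan nuclear receptor of the naive set, and Ddc (0.171). Those of Klf4 were Tead4 (0.109), Pfkp (0.116) and Tet2 (0.117), another 5-methylcytosine oxidase. Esrrb was matched by Mreg (0.119), Gm10499 (0.119) and Rab27a (0.12). Nr0b1 was matched by Ak7 (0.0918), Fgf4 (0.104), a ligand made by pluripotent cells, and Dlgap3 (0.114). Tfcp2l1 was matched by H2-M5 (0.0948), Mmrn2 (0.0952) and Nfatc2ip (0.109), and Zfp42 by Scpep1 (0.0478), Fam175a (0.0551) and Zbtb45 (0.056). Klf2, with its own order of clones, was matched by Tex19.1 (0.0702), a germline and stem cell gene, Zbtb32 (0.0867) and Dmtn (0.0942), and Klf5 by Fam104a (0.0385), Zc3h3 (0.0428) and Sap30 (0.0471). The partners of the 2 widest members were less close: Hormad2 (0.147), Spn (0.167) and Tcl1 (0.202) for Tbx3, and Dazl (0.314), Fam81a (0.340) and Atp6v0a4 (0.371) for Prdm14. Tead4, at 5.5 Mb from Nanog, and Atp6v0a4, at -84.7 Mb, lie on chromosome 6 too. The median deviation over that chromosome was -0.43 and -0.40 in KO replicates 2 and 3, and lower genes were not spread evenly along it. The likeness is a description over 6 libraries that share the same clones, and carries no test.

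Of 15 other naive genes, 14 had a log2 fold change below 0 and DESeq2 called 1, Tdh, as lower. Tdh, the threonine dehydrogenase of mouse stem cells, had 242, 193 and 184 CPM in Tet1 KO replicates 1 to 3, against 307, 295 and 343 CPM in non-targeted replicates 1 to 3, with no overlap (log2 fold change -0.61 ± 0.12 SE, edgeR adjusted p = 0.106, DESeq2 adjusted p = 0.00196). Bmp4 and Fbxo15, with -0.60 ± 0.21 and -0.67 ± 0.25 (SE), did not pass. The median of these 15 genes was -0.09, -0.64 and -1.15 in Tet1 KO replicates 1 to 3 and 0.08, -0.15 and 0.06 in non-targeted replicates 1 to 3, the same order of clones as the 10 factors at a smaller size. Among 9 genes of LIF and Stat3 signalling, DESeq2 called 1 as lower and 1 as higher. Stat3, the transcription factor activated by LIF, fell to 135 ± 23.8 CPM in Tet1 KO clones, against 198 ± 14.6 CPM in non-targeted clones (SD, n = 3 each; edgeR adjusted p = 0.110, DESeq2 adjusted p = 0.0111). Ptpn11, the phosphatase Shp2 that links the LIF receptor to MEK, rose to 183 ± 27.1 CPM, against 135 ± 10.4 CPM in non-targeted clones (SD, n = 3 each; edgeR adjusted p = 0.122, DESeq2 adjusted p = 0.0451). Jak1 had a log2 fold change of 0.31 ± 0.10 (SE) and did not pass.

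The core pluripotency genes had smaller deviations than the naive factors, a difference that was not tested: their median was -0.11, -0.24 and -0.36 in Tet1 KO replicates 1 to 3 over the 8 of 9 genes tested, and DESeq2 called 1, Trim28, as lower (log2 fold change -0.40 ± 0.11 SE, DESeq2 adjusted p = 0.0391). Dppa4 and Pou5f1 had -0.35 ± 0.13 and -0.19 ± 0.07 (SE) and did not pass. Of 13 regulators of the exit from the naive state, DESeq2 called 0 and edgeR called 0, with 2 at an unadjusted p under 0.05 in edgeR; Foxd3, Fnip2 and Tcf7l1 had the smallest p, with log2 fold changes of -0.55 ± 0.18, -0.19 ± 0.07 and -0.17 ± 0.08 (SE). Of 17 formative and primed epiblast genes, DESeq2 called 3 as higher and 0 as lower. These were Sox3, at 15.5 ± 7.58 CPM in Tet1 KO and 5.15 ± 1.81 CPM in non-targeted clones, Sall2, at 49.02 ± 24.5 and 15.3 ± 7.46 CPM, and Lefty2, at 47.3 ± 12.7 and 25.8 ± 7.03 CPM (SD, n = 3 each). The groups overlapped in Sall2. The list did not move 1 way, with 13 genes above 0 and 4 below. Otx2 was lower with no overlap, at 20.2, 20.4 and 16.7 CPM in Tet1 KO and 27.2, 27.6 and 23.0 CPM in non-targeted replicates 1 to 3. It did not pass (log2 fold change -0.44 ± 0.14 SE, DESeq2 adjusted p = 0.0668), nor did Etv4, at -0.39 ± 0.13 (SE). The formative list had a median of 0.20, 0.34 and 0.79 in Tet1 KO replicates 1 to 3 and -0.20, 0.34 and -0.0015 in non-targeted replicates 1 to 3, so that KO replicate 2 and non-targeted replicate 2 were level.

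**Figure D5:**
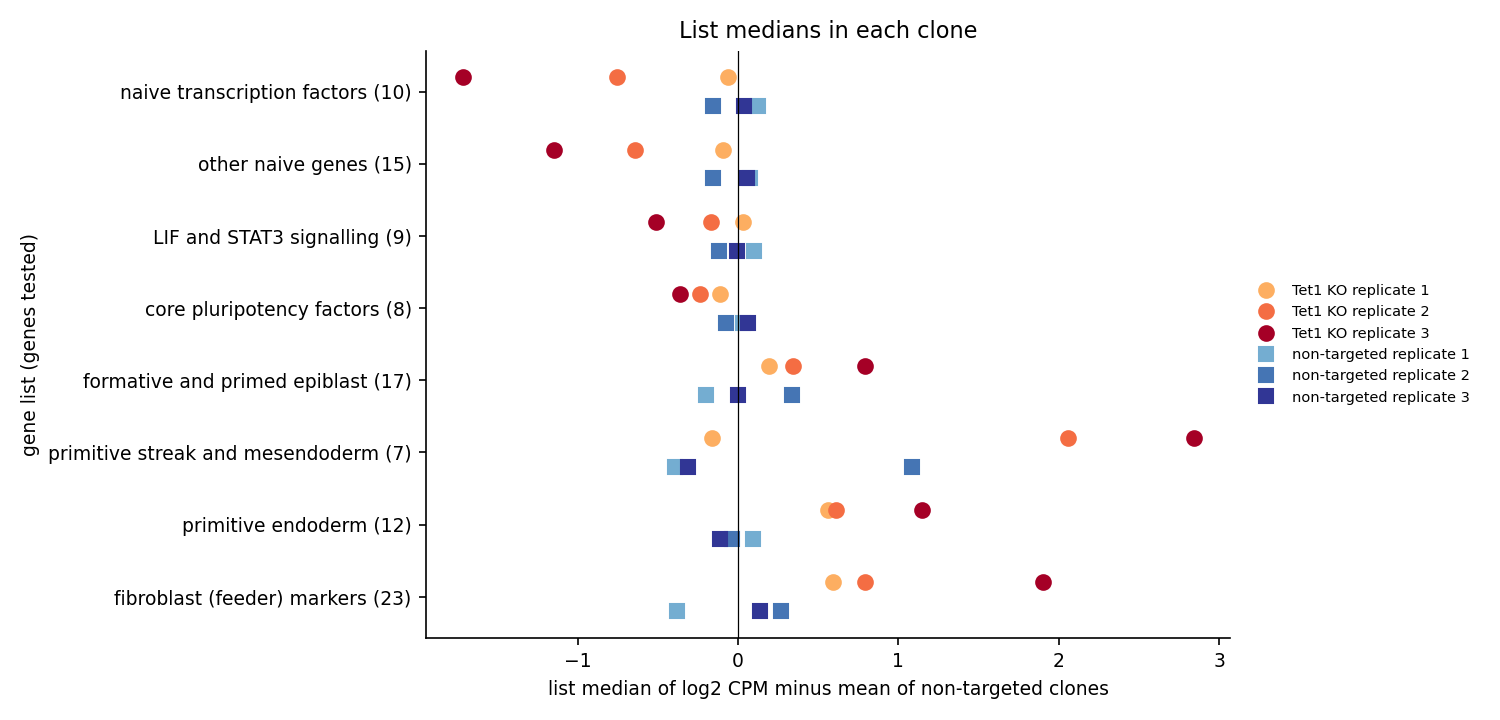
Median over each gene list of log2 CPM minus the non-targeted mean, in each clone (circles Tet1 KO, squares non-targeted), with the number of genes tested. The 10 naive factors spread from -0.06 to -1.72 over the KO clones, the core factors from -0.11 to -0.36, and the fibroblast markers run the other way, from 0.59 to 1.90.

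Paralogs of the members are shown because their reads could be confused with those of the members and because they can share function. Of 23 paralogs 18 were tested, with a median log2 fold change of -0.09. Klf15, a Krüppel-like factor, had 6.29, 4.22 and 3.95 CPM in Tet1 KO replicates 1 to 3 and 9.60, 10.5 and 10.1 CPM in non-targeted replicates 1 to 3, with no overlap, and fell in DESeq2 (log2 fold change -1.06 ± 0.22 SE, edgeR adjusted p = 0.106, DESeq2 adjusted p = 0.00254). Klf6, a Krüppel-like factor made in many tissues, had 167, 315 and 409 CPM in Tet1 KO replicates 1 to 3 and 122, 170 and 128 CPM in non-targeted replicates 1 to 3, and rose in DESeq2 (log2 fold change 1.08 ± 0.30 SE, edgeR adjusted p = 0.123, DESeq2 adjusted p = 0.00795). The KO clones of Klf6 were in the reverse order of those of Klf4, with replicate 1 just inside the non-targeted range. Klf7 had 0.89 ± 0.37 (SE) and did not pass.

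Of the lineage lists, primitive streak genes stood highest in the 2 clones in which the factors were low, with a median deviation of -0.16, 2.06 and 2.84 in Tet1 KO replicates 1 to 3 and -0.39, 1.08 and -0.31 in non-targeted replicates 1 to 3. T, the brachyury gene, had 1.92, 48.9 and 22.9 CPM in Tet1 KO replicates 1 to 3, against 1.61, 5.12 and 1.2 CPM in non-targeted replicates 1 to 3, and did not pass (log2 fold change 3.19 ± 1.04 SE, DESeq2 adjusted p = 0.0669). Of the 7 of 10 streak genes tested DESeq2 called 2 as higher, Wnt3 and Eomes, the second at 16.1 ± 6.65 CPM in Tet1 KO and 6.27 ± 1.41 CPM in non-targeted clones (SD, n = 3 each, edgeR adjusted p = 0.111, DESeq2 adjusted p = 0.00366). Mixl1 had a log2 fold change of 1.44 ± 0.41 (SE) and did not pass (edgeR adjusted p = 0.125). It rests on 74 reads over all 6 libraries, at 0.84 to 1.73 CPM in Tet1 KO and 0.42 to 0.65 CPM in non-targeted clones. The summed CPM of the tested streak genes ranged from 15.6 to 105 in Tet1 KO and from 9.45 to 21.8 in non-targeted clones. Of the 12 of 14 primitive endoderm genes tested DESeq2 called 5 as higher. They were the collagens Col4a2 (log2 fold change 1.38 ± 0.22 SE) and Col4a1 (0.95 ± 0.21), the receptor Pdgfra (1.15 ± 0.28), Cubn and Dab2. Fibroblasts also make Col4a2, Col4a1 and Pdgfra. The endoderm transcription factors stood at a few CPM and differed in direction. Gata4 was higher with no overlap, at 2.53 to 4.10 CPM in Tet1 KO and 1.2 to 1.93 CPM in non-targeted clones, but did not pass (DESeq2 adjusted p = 0.121). Gata6 overlapped, at 1.07 to 2.80 CPM in Tet1 KO and 1.12 to 1.78 CPM in non-targeted clones. Sox7 was lower by a narrow margin with no overlap, at 1.15 to 2.147 CPM in Tet1 KO and 2.155 to 2.66 CPM in non-targeted clones, and did not pass (DESeq2 adjusted p = 0.457).

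Of 4 of 7 early neural genes tested, DESeq2 called Msi1 as higher and Pax6 as lower, at 46.9 ± 5.65 and 1.78 ± 0.511 CPM in Tet1 KO against 27.4 ± 5.02 and 4.47 ± 0.526 CPM in non-targeted clones (SD, n = 3 each), while Nes had a log2 fold change of 1.80 ± 0.55 (SE). Of 7 of 8 trophoblast genes tested DESeq2 called 1, Cited1, as higher, at 2.42 ± 0.271 CPM in Tet1 KO and 0.795 ± 0.274 CPM in non-targeted clones (SD, n = 3 each), and Krt8 and Tfap2c had log2 fold changes of 1.63 ± 0.64 and -0.41 ± 0.17 (SE). In edgeR with all 6 clones, 0 genes of any of the 11 lists passed. The median log2 fold change was -0.60 for the other naive genes, -0.21 for LIF and Stat3 signalling, -0.21 for the core factors and -0.17 for the exit regulators, against 0.00 over all tested genes. It was 0.43 for the formative genes, 1.28 for the fibroblast markers, 0.79 for primitive endoderm, 1.72 for primitive streak, 0.55 for early neural and 0.11 for trophoblast genes. Without KO replicate 1, edgeR called 11 of 15 other naive genes as lower, 5 of 8 core factors as lower, and 8 of 17 formative genes as higher and 2 as lower. In that fit 7 of the 9 streak genes it tested and 19 of 23 fibroblast markers were called as higher, where 15.1% of all tested genes were, and 1 fibroblast marker as lower. The low-count filter was run anew there and kept 9 streak genes, against 7 with all 6 clones. A gene could pass it through its counts in KO replicates 2 and 3 alone, so the 7 of 9 is no separate support for a rise.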

How the data were processed

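For 6 polyadenylated RNA libraries, the deposited values are raw read counts per gene made by the authors, with no normalization. HISAT2 2.1.0, the mm10 build, featureCounts 1.5.3 and DESeq2 1.18.1 are named in the submitters' processing notes; per the file headers the counting used featureCounts 1.6.2, reverse-stranded, over whole gene bodies of GENCODE M15 (GRCm38.p5), introns included. By the command there, multi-mapping reads and reads over several genes were not counted, so nested genes are at 0.

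From these counts, genes were kept with edgeR's filterByExpr (minimum count 10, minimum total 15; 14664 of 25600 genes with any count), scaled with TMM, and compared with edgeR's quasi-likelihood test over all genes, group as the only term, with Benjamini-Hochberg adjustment at 0.05. CPM uses the TMM factors; deviations use log2 CPM with a prior count of 2. The SE is the fold change divided by the root of the F statistic. The common biological coefficient of variation was 0.188. DESeq2 with its own size factors and limma voom were alternatives, and the fit was tested on simulated data. Versions were DESeq2 1.42.0, limma 3.58.1 and edgeR 4.0.16 under R 4.3.3. Promoters are from RefSeq (GRCm38.p6) and exon lengths from GENCODE M21.

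The members and the other gene lists were chosen with earlier results of these data known. Named genes are all 10 members, Tet1 and Pou5f1, the 3 genes of each list with the smallest edgeR p, and the 3 genes closest to each member in pattern. Gdf3, Fn1, Vim, Gata6, Wnt3, Cubn, Dab2, Gata4, Sox7, Sox2, Sall4, Utf1, Lin28a, Tdgf1, Otx2, Etv4, Serbp1 and Lsm3 are named outside that rule, after their values were seen.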

Additional observations from a re-analysis of the deposited data

How the results depend on the processing

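With RLE or upper quartile factors, library totals alone, no filter, a robust fit, DESeq2, limma voom or the replicate block, all 10 factors stayed below 0 and 0 were called. Over all genes, DESeq2 called 789 as higher and 458 as lower, edgeR with no filter 97 and 62, limma voom 0 and 1, and edgeR with the replicate block 2 and 1. Same-numbered clones had deviations correlated at 0.46, 0.11 and -0.02, and KO replicate 3 with non-targeted replicate 2 at 0.46. Clones with unlike numbers thus reached as high a value, and these correlations cannot show whether the numbers pair the clones. With the block the members' median was -0.83. Leaving out 1 clone at a time in edgeR gave 0 to 2287 genes called as higher and 0 to 2117 as lower, and 0 to 8 members called as lower. In DESeq2, added after seeing the data, leaving out KO replicates 1, 2 and 3 gave 2051, 194 and 147 genes as higher and 2071, 113 and 115 as lower. Leaving out non-targeted replicates 1, 2 and 3 gave 121, 578 and 90 as higher and 68, 190 and 37 as lower. DESeq2 called 7 members as lower without KO replicate 1 and 0 in the other 5 fits.

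Over these fits the members' median ran from -1.12 to -0.34. In edgeR the log2 fold change ran from -1.34 to -0.40 for Nanog, -1.16 to -0.36 for Esrrb, -0.47 to 0.0153 for Klf2, -1.61 to -0.30 for Klf4, -0.24 to 0.0019 for Klf5, -0.98 to -0.39 for Tfcp2l1, -1.62 to -0.53 for Tbx3, -2.09 to -0.36 for Prdm14, -0.79 to -0.33 for Zfp42 and -1.07 to -0.26 for Nr0b1. In DESeq2 it ran from -1.35 to -0.41 for Nanog, -1.17 to -0.37 for Esrrb, -0.48 to 0.0048 for Klf2, -1.61 to -0.31 for Klf4, -1.62 to -0.54 for Tbx3, -2.07 to -0.37 for Prdm14, -0.79 to -0.34 for Zfp42 and -1.08 to -0.27 for Nr0b1. The log2 ratio to Pou5f1 ran from -0.30 to 0.17 for Klf2, and for Klf5 from -0.045 to 0.19, with -0.022 without non-targeted replicate 2. The cause of these moves was not tested.

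Per kb of whole gene, introns included, the non-targeted CPM were 69.9 for Nanog, 126 for Klf2, 97.8 for Klf4, 4.49 for Esrrb, 27.1 for Nr0b1, 18.6 for Klf5, 7.68 for Tfcp2l1, 21.5 for Tbx3, 6.20 for Zfp42 and 1.62 for Prdm14, since the length is larger, and Klf2 is then the first. Depth limits Prdm14 most, at 23 reads in KO replicate 3.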
